A study of Mus musculus with 6 samples.

Results

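The 10 iron and heme handling genes described here were Tfrc, Slc11a2, Slc11a1, Slc40a1, Fth1, Ftl1, Ireb2, Slc48a1, Hmox1 and Blvrb. They were taken by symbol from a table of 16836 genes measured in cultured mouse bone marrow-derived macrophages. All 10 were found and all 10 passed the filter on low values, among 12118 genes that did. The 6 libraries of polyadenylated RNA came from Ube3a knockout mice (KO, 3 libraries) and wild-type littermates (WT, 3 libraries). The labels write the genotype as Ube3a-/- or UBE3A KO, and the sources used here do not state the allele, the strain, the age or any stimulus of the cultures. Nor do they say whether each library came from its own animal, so a p-value weighs the genotypes against the spread of these 6 samples only, part of which may be technical.

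Macrophages take iron from transferrin and, above all, from red cells they engulf. Heme freed in the phagolysosome is carried out to the cytosol and opened by heme oxygenase, and the released iron is stored in ferritin or exported to plasma. A pair of iron regulatory proteins senses cytosolic iron and binds short hairpins, the iron-responsive elements, in target transcripts. Binding near the start of a transcript blocks its translation, and binding near the end protects the transcript from decay. Transcript counts can therefore show the second kind of control but not the first.

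Of the 10 genes, 5 held a match to such an element by a sequence search. The matches are shown because their place, near the start or the end of the transcript, bears on which kind of control is possible. Whether they act in these cells was not tested. The search looked, on the transcript strand of GENCODE M21 coding transcripts (GRCm38), for a C, 5 bases, the loop CAGTGN and 5 bases, with at least 4 of the 5 flanking bases able to pair. Capitals mark the loop, and coordinates are GRCm38, with the strand of the gene.
Fth1, 5' UTR, chr19:9982731-9982760, plus strand: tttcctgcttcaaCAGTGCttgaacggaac
Ftl1, 5' UTR, chr7:45459779-45459808, minus strand: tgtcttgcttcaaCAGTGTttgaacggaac
Slc40a1, 5' UTR, chr1:45925465-45925494, minus strand: ccaacttcagctaCAGTGTtagctaagttt
Slc11a2, 3' UTR, chr15:100395153-100395182, minus strand: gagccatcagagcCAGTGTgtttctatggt
Tfrc, 3' UTR, chr16:32631218-32631247, plus strand: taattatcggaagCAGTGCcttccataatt
Tfrc, 3' UTR, chr16:32631597-32631626, plus strand: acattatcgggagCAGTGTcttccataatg
Tfrc, 3' UTR, chr16:32631662-32631691, plus strand: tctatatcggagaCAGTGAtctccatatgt
Tfrc, 3' UTR, chr16:32631709-32631738, plus strand: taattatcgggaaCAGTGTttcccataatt
The Slc11a2 match had 4 of 5 pairs and the others had 5 of 5. A match of at least 4 pairs was present in the 5' UTR of 206 of 20597 genes searched and in the 3' UTR of 872 of 20995 (4.15%). With all 5 pairs the counts were 31 (0.15%) and 129 (0.61%). No match, as for Slc11a1, Ireb2, Slc48a1, Hmox1 and Blvrb, means only that this pattern with its pairing was not found in the UTRs searched.

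The targeted gene was checked in every library first. Ube3a stood at 69.7, 61.2 and 77.0 CPM in KO replicates 1 to 3 and at 207.1, 193.7 and 177.6 CPM in WT replicates 1 to 3 (log2 difference −1.47 ± 0.10 SE, n = 3 per genotype; limma adjusted p = 0.00444). The KO mean was 35.9% of the WT mean, and without both libraries numbered 2 the log2 difference was −1.38. Exons of Ube3a share 1796 bp with 9330162G02Rik, 1803 bp with Snhg14 and 2025 bp with Gm44560, all on the other strand. The strand setting of the counting is not stated. CPM are reads set to a common library size, using the sizes scaled by the authors. Libraries held 25454862 to 35517269 reads, and the 10 genes had between 1315 and 208059 reads in a library, so counting error is small beside the spread between libraries. Both libraries numbered 2 had almost no Xist, the RNA that female cells transcribe from the inactive X chromosome (28 reads in the KO library, 14 in the WT library, 30161 to 42232 in the other 4), so replicate 2 of each genotype stood apart from the other libraries. The labels do not give the sex of the animals, and results are given with and without this pair. Macrophage markers were all present, 13 of 13 tested, with summed levels of 16048 to 19388 CPM in KO and 16608 to 18810 CPM in WT, of which Lyz2 gave 57.7%. By gene, 10 of the 13 had a positive log2 difference KO minus WT (median 0.22, none past the threshold), and their mean centred level was lowest in WT replicates 1 and 3 (−0.31 and −0.22, against −0.02 to 0.22 in the other 4 libraries). The part of this shift in the results on the iron genes was not tested. None of the 12 erythroid markers had a row in the table, and they were not analysed here.

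None of the 10 genes passed the threshold between KO and WT (limma on log2(CPM + 1), Benjamini-Hochberg adjusted p under 0.05 over all tested genes), where 0.0165% of tested genes did (0.00825% higher and 0.00825% lower in KO). None had an unadjusted p under 0.05 either, beside 4.13% of all tested genes, and none had KO and WT values that did not overlap, beside 9.95%. Their log2 differences ran from −0.14 for Ireb2 to 0.16 for Fth1, with 5 positive and 5 negative, beside 50.4% of tested genes higher in KO, and a median of −0.00051, beside 0.0015 over all tested genes. The 95% interval of the difference lay within 1.5-fold in all 10 in this fit, as it did for 90.4% of tested genes. Without both libraries that had almost no Xist, the log2 intervals of Slc11a2 (0.10 to 0.66) and Fth1 (−0.02 to 0.60) reached past 1.5-fold. Adjusted p-values ran from 0.866 to 0.973. In the authors' deposited table, the unadjusted p-values of these genes were 0.118 (Ireb2) to 0.860 (Hmox1). Two-sided exact permutation tests of the 3 against 3 values gave p from 0.2 to 0.9, where 0.1 is the smallest possible.

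**Figure D1:**
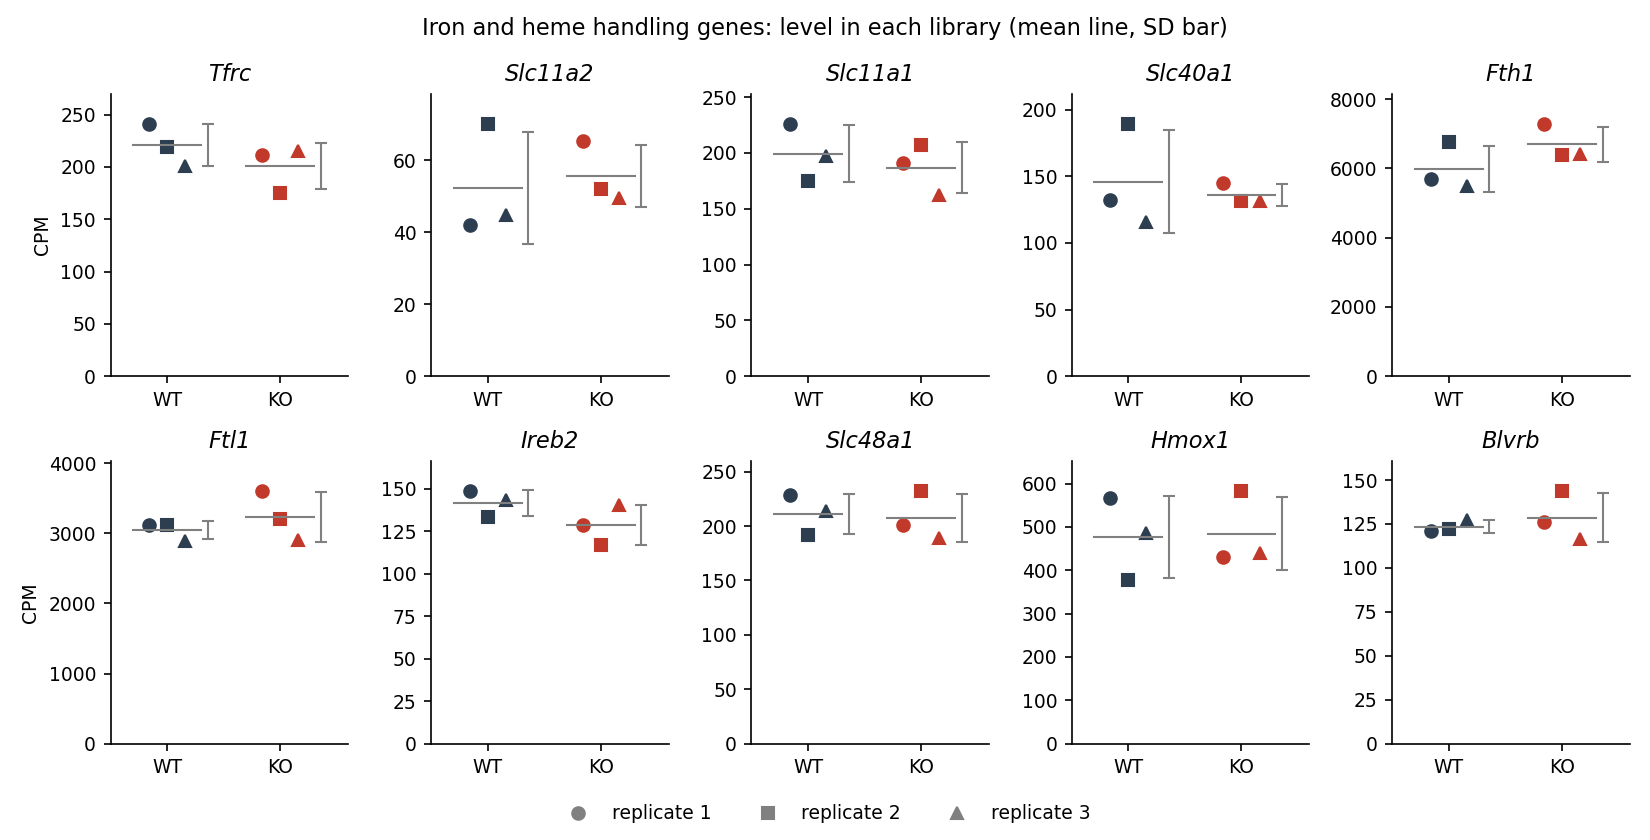
Level of each gene in CPM (y axis, linear, from 0) in the 3 WT (dark) and 3 KO (red) libraries, with the marker shape giving the replicate, the line the mean and the bar the SD. In every panel the KO and WT points overlap, and WT replicate 2 stands high for Slc40a1 (189.3 CPM) and low for Hmox1 (377.9 CPM).

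Per kb of transcript, ferritin stood far above the other genes. Dividing by the longest coding transcript of each gene, Fth1 had 4242 ± 444.2 CPM per kb (SD over the 6 libraries), Ftl1 3243 ± 267.1 and Hmox1 306.3 ± 51.4. Blvrb followed at 122.6 ± 9.20, Slc11a1 at 83.4 ± 9.84 and Slc48a1 at 82.5 ± 7.23. The lowest levels were those of Tfrc (43.1 ± 4.45), Slc40a1 (41.8 ± 7.57), Ireb2 (23.4 ± 1.98) and Slc11a2 (12.2 ± 2.57), all in CPM per kb. Each gene was above the next in all 6 libraries, except that Slc11a1 was above Slc48a1 in 3 of 6 and Tfrc above Slc40a1 in 4 of 6. With the exon-union length, a choice made after the data were seen, Ftl1 (2343 CPM per kb) came above Fth1 (1827) and Blvrb (45.3) came below Slc48a1 (76.1) and Slc11a1 (52.1). Slc48a1 was then above Slc11a1, and Tfrc above Slc40a1, in all 6 libraries. Slc40a1 (15.6) was above Ireb2 (14.3) in only 3 of 6. All these orders depend on the length used.

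Iron uptake and movement out of endosomes. Tfrc, the transferrin receptor, stood at 211.7, 175.3 and 215.3 CPM in KO replicates 1 to 3 and at 241.2, 219.1 and 201.2 CPM in WT. Only KO replicate 2 lay below every WT library. KO minus WT came to −0.14 ± 0.10 on the log2(CPM + 1) scale (SE, n = 3 per genotype), with a 95% interval of −0.37 to 0.09 (limma adjusted p = 0.866). Leaving out single libraries gave −0.04 (without KO replicate 2) to −0.20 (without WT replicate 3), and leaving out both Xist-low libraries gave −0.045. Tfrc lies at chr16:32608920-32632794, with the 4 matches shown above in the 3' UTR of its transcript.

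Slc11a2 encodes DMT1, which moves ferrous iron across the plasma and endosomal membranes. Its levels were 65.4, 51.9 and 49.5 CPM in KO and 42.1, 70.2 and 44.8 CPM in WT. The highest and the lowest library were both WT, 1.67-fold apart. This gave a log2 difference of 0.11 ± 0.19 (95% interval −0.33 to 0.55; limma adjusted p = 0.916), the widest interval of the 10. It was near 0 when KO replicate 1 (−0.0088), WT replicate 1 (−0.024) or WT replicate 3 (0.021) was left out, and 0.34 when WT replicate 2 was. Of its exons, 402 bp are shared with Gm5475 on the other strand, and no source used here states the strand setting of the counting.

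Slc11a1 encodes NRAMP1, the related transporter of the phagolysosome membrane of macrophages. It stood at 191.1, 206.8 and 162.0 CPM in KO and at 226.1, 174.9 and 197.1 CPM in WT. KO replicate 3 was lowest and WT replicate 1 highest, with the other 4 libraries interleaved. Its log2 difference was −0.09 ± 0.12 (95% interval −0.36 to 0.18; limma adjusted p = 0.892). It was near 0 without KO replicate 3 (0.0038) or WT replicate 1 (0.00031), and −0.18 without WT replicate 2.

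Iron export. Slc40a1 encodes ferroportin, the iron exporter that hepcidin removes from the cell surface. It stood at 145.2, 131.1 and 131.4 CPM in KO and at 132.1, 189.3 and 116.0 CPM in WT. WT replicate 2 was above all other libraries, and the SD was 38.6 CPM in WT against 8.06 in KO. On the log2 scale the difference was −0.07 ± 0.16 (95% interval −0.44 to 0.30; limma adjusted p = 0.934). Without WT replicate 2 it was 0.13 (limma adjusted p = 0.579), so its direction rests on that library. Without WT replicate 3 it was −0.22.

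Iron storage. Fth1, the ferritin heavy chain that oxidizes iron for storage, stood at 7289, 6374 and 6414 CPM in KO and at 5694, 6754 and 5500 CPM in WT. All 3 KO libraries were above WT replicates 1 and 3, and WT replicate 2 lay among the KO libraries. This gave a log2 difference of 0.16 ± 0.14 (95% interval −0.15 to 0.48; limma adjusted p = 0.866). With single libraries left out it ran from 0.10 (without KO replicate 1) to 0.26 (without WT replicate 2), and without both Xist-low libraries it was 0.29.

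Ftl1, the light chain that helps to nucleate the iron core, had 3600, 3203 and 2900 CPM in KO and 3120, 3120 and 2895 CPM in WT. KO replicate 1 was highest, and KO replicate 3 and WT replicate 3 were about level. Its log2 difference was 0.08 ± 0.11 (95% interval −0.18 to 0.34; limma adjusted p = 0.900). KO replicate 1 carried most of it, since the difference was 0.0023 without that library, and it was 0.16 without KO replicate 3. Leaving out both Xist-low libraries gave 0.10. The ratio of Fth1 to Ftl1 in CPM kept to a narrow range, from 1.83 in WT replicate 1 to 2.21 in KO replicate 3. Both chains together took 0.852% to 1.07% of the reads of a library, with Fth1 ranked 5 or 6 of all genes. Ferritin has many near-identical pseudogenes. The 5 in the table held 145 to 228 reads per library, at most 0.0755% of the Fth1 and Ftl1 reads, and reads lost between copies cannot be seen in the table. Ftl1 lies on the chromosome of the targeted gene, at chr7:45457944-45459884, 13.8 Mb from Ube3a. It shares 355 bp of exon with Gm10252 on the other strand.

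Iron sensing. Ireb2 encodes IRP2, the iron regulatory protein that is degraded when iron is plentiful. It stood at 128.5, 116.9 and 140.2 CPM in KO and at 148.5, 133.2 and 143.2 CPM in WT. KO replicates 1 and 2 lay below every WT library, and KO replicate 3 lay above WT replicate 2. On the log2 scale the difference was −0.14 ± 0.08 (95% interval −0.33 to 0.05; limma adjusted p = 0.866). Its exact permutation p of 0.2 was the smallest of the 10. The difference was −0.075 without KO replicate 2, −0.21 without KO replicate 3 and −0.12 without both Xist-low libraries.

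Heme transport and breakdown. Slc48a1 encodes HRG1, which carries heme from the phagolysosome to the cytosol. It stood at 200.8, 231.9 and 189.0 CPM in KO and at 228.2, 191.8 and 213.9 CPM in WT. Both the highest and the lowest library were KO. This gave a log2 difference of −0.03 ± 0.10 (95% interval −0.25 to 0.19; limma adjusted p = 0.951). It turned positive when KO replicate 3 (0.034) or WT replicate 1 (0.027) was left out, and was −0.11 when KO replicate 2 was. Its exons share 29 bp with Hdac7 on the other strand.

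Hmox1, heme oxygenase 1, opens the heme ring to give biliverdin, carbon monoxide and iron. It stood at 430.1, 582.2 and 440.9 CPM in KO and at 567.4, 377.9 and 485.0 CPM in WT. Replicate 2 was highest in KO and lowest in WT, so that the genotypes crossed. Its log2 difference was 0.03 ± 0.17 (95% interval −0.36 to 0.41; limma adjusted p = 0.973). Without KO replicate 2 it was −0.11 and without WT replicate 2 it was −0.13 (limma adjusted p = 0.9998 and 0.734), and without WT replicate 1 it was 0.16.

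Blvrb encodes biliverdin reductase B, a flavin and biliverdin reductase. It stood at 125.9, 143.6 and 116.3 CPM in KO and at 120.8, 122.3 and 127.5 CPM in WT. The WT libraries all lay inside the range of the KO libraries. The log2 difference was 0.05 ± 0.08 (95% interval −0.14 to 0.24; limma adjusted p = 0.914). It was −0.030 without KO replicate 2 and 0.12 without KO replicate 3. Blvrb also lies on chromosome 7, at chr7:27447978-27466144, 31.8 Mb from Ube3a.

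**Figure D2:**
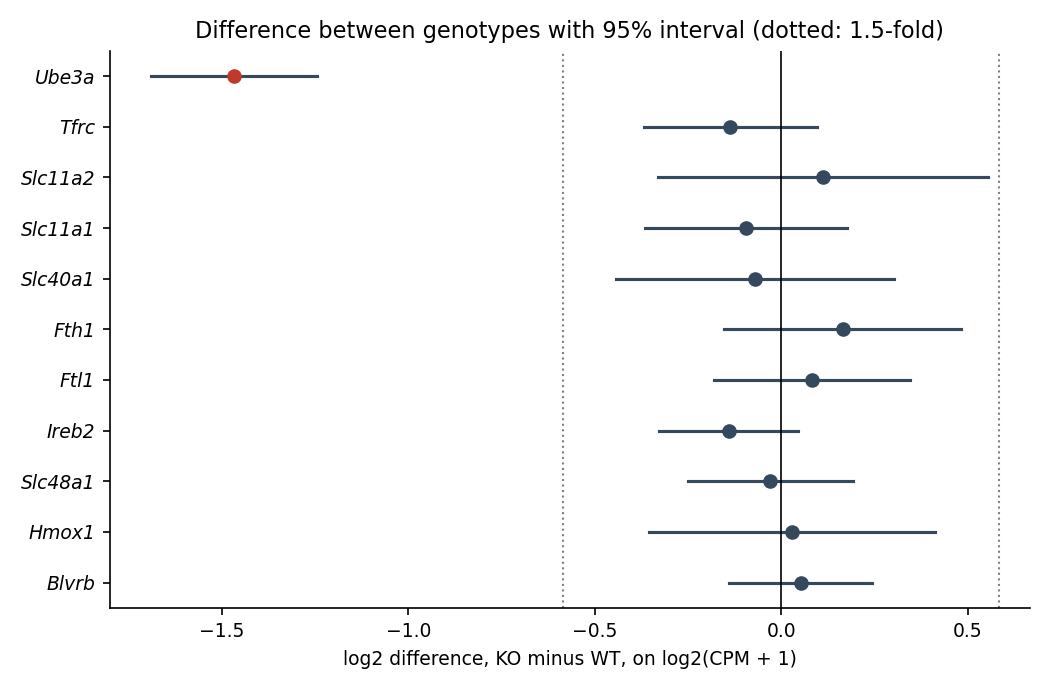
Log2 difference KO minus WT on log2(CPM + 1) (x axis) with its 95% interval for Ube3a and the 10 genes, where red marks an adjusted p under 0.05 and dotted lines mark 1.5-fold. Ube3a stands alone at −1.47, and every interval of the 10 genes crosses 0 and stays between the dotted lines.

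For 8 of the 10 genes, all but Fth1 and Ireb2, the SD within a genotype was larger than the difference between the means, as for 68.3% of all tested genes. The within-genotype SD of Slc11a2 (0.32 on the log2(CPM + 1) scale) was larger than that of 94.5% of tested genes. The value was 0.27 for Hmox1, larger than in 91.6%, and 0.26 for Slc40a1, larger than in 91.2%. Ireb2 (0.11) and Blvrb (0.11) were nearer the middle, at 44.7% and 47.3%. Among only the tested genes within 1 log2 unit of the member's mean level, these shares were higher. They were 97.4% for Slc11a2, 93.7% for Hmox1, 95.5% for Slc40a1, 61.6% for Ireb2 and 64.4% for Blvrb.

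These differences between libraries ran in opposite ways in 2 sets of genes, which were noticed in the data and are given as a description. In WT, replicate 2 was highest for Slc40a1, Slc11a2 and Fth1 and lowest for Hmox1, Slc48a1 and Slc11a1. In KO, replicate 1 was highest for Slc40a1, Slc11a2, Fth1 and Ftl1, and replicate 2 was highest for Hmox1, Slc48a1, Slc11a1 and Blvrb. The ratio of Hmox1 to Slc11a2 in CPM ran from 5.39 in WT replicate 2 to 13.5 in WT replicate 1. That of Hmox1 to Slc48a1 ran from 1.97 to 2.51, a 1.27-fold range. Tfrc and Ireb2 had their lowest level in KO replicate 2 and their highest in WT replicate 1, and were in neither set.

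**Figure D3:**
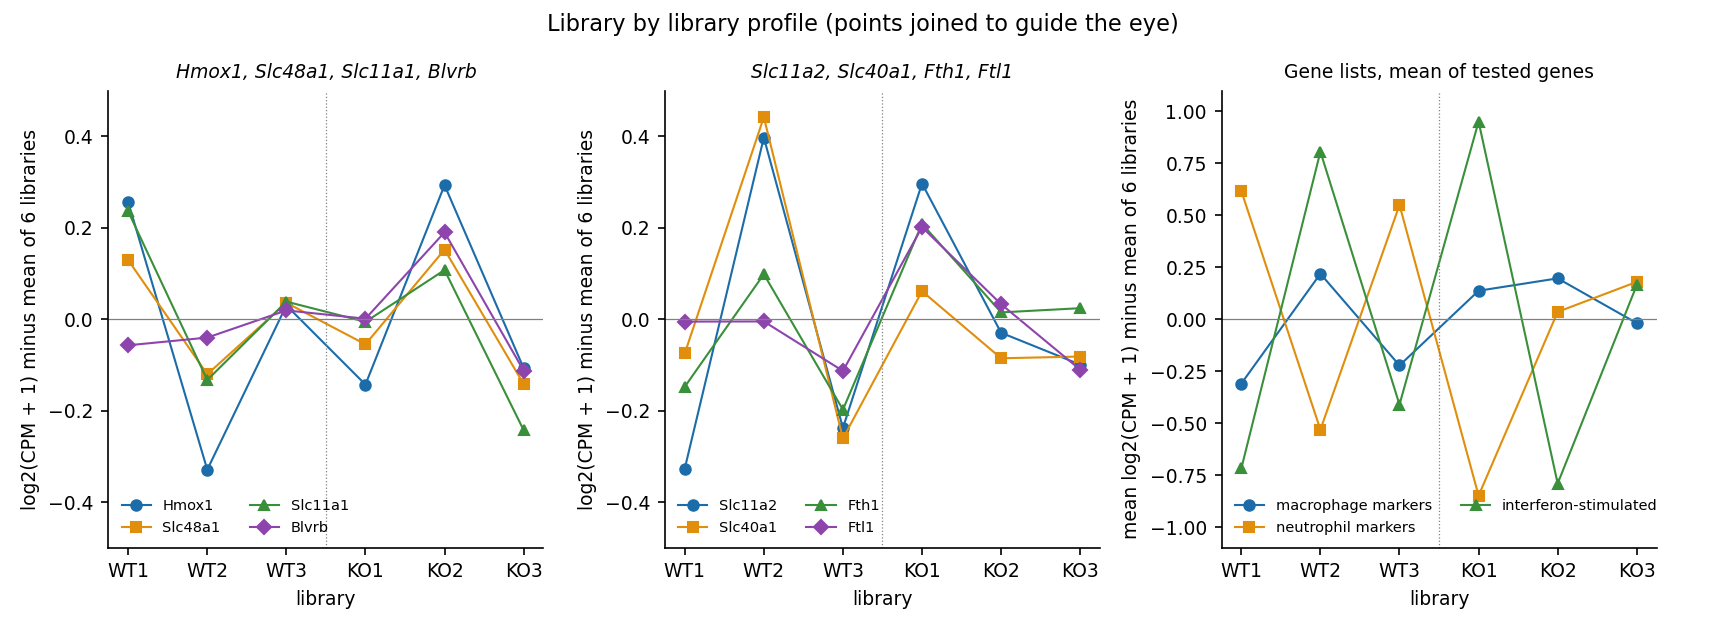
Level in each library on log2(CPM + 1) minus the mean of the 6 libraries (y axis) for 4 genes led by Hmox1 (left), 4 led by Slc11a2 (middle) and 3 gene lists (right, wider axis). WT replicate 2 is lowest for Hmox1 (−0.33) and high for Slc40a1 (0.44), and the interferon list is highest in KO replicate 1 and WT replicate 2.

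Other gene lists also differed between these libraries. Interferon-stimulated genes, all 24 of 24 in the table, summed to 2638, 771 and 1451 CPM in KO replicates 1 to 3 and to 811, 2263 and 1012 CPM in WT. KO replicate 1 and WT replicate 2, the highest for this list, were also the highest libraries for Slc11a2. Neutrophil and granule markers, 10 of 12 in the table with 4 at 0 in some library, summed to 9.20, 19.9 and 22.1 CPM in KO and to 33.8, 11.1 and 29.1 CPM in WT. They were lowest in the same pair of libraries. Stem and progenitor markers, 6 of 8 in the table, with Cd34 giving 91.8% of the sum and 1 gene at 0 in some library, summed to 28.7 to 38.2 CPM in KO and to 32.5 to 81.2 CPM in WT. Of 8 dendritic cell markers 4 were in the table, and their sum of 49.1 to 91.0 CPM in KO and 41.3 to 145.9 CPM in WT was almost all Itgax, the highest of them. Lymphocyte markers (1 of 7, at most 0.120 CPM) and stromal markers (3 of 7, at most 2.25 CPM) were near 0. The part of these lists in the levels of the iron genes was not tested. In bulk RNA, fewer cells of a type and less RNA per cell cannot be told apart.

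The genes whose profile over the 6 libraries was nearest to each of the 3 most variable members were listed by the root mean square difference of centred log2(CPM + 1) values, among 8790 other genes with a mean of at least 10 CPM. Nearest to Slc11a2 were Idua (0.047), a lysosomal iduronidase, Adgre1 (0.052), the F4/80 antigen of macrophages, and Clcn7 (0.057), a lysosomal chloride transporter, where the median gene was at 0.28. Nearest to Hmox1 were Fzd7 (0.043), a Wnt receptor, Ndst1 (0.064), an enzyme of heparan sulfate, and Plekhh2 (0.064), with a median of 0.24. Nearest to Slc40a1 were Sntb2 (0.078), Prkcb (0.081), a protein kinase C, and Tank (0.083), with a median of 0.24. The 3 genes were picked as the smallest of 8790 differences, so values far below the median follow from the choice. A link in function to the members was not tested.

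Both libraries with almost no Xist were replicate 2, and the comparison was repeated without them. On the 4 remaining libraries none of the 10 genes passed, where 0.193% of tested genes did (23 of 11891). An unadjusted limma p under 0.05 was reached by 4 of the 10, in a fit in which 11.3% of tested genes reached it. Hmox1 had a log2 difference of −0.27 (95% interval −0.48 to −0.06; limma adjusted p = 0.276), Slc48a1 of −0.18 and Slc11a1 of −0.26. Slc11a2 had 0.38 (95% interval 0.10 to 0.66; limma adjusted p = 0.254). In these 4 libraries some other gene lists also separated by genotype. Interferon-stimulated genes had a mean centred level of 0.95 and 0.16 in KO replicates 1 and 3, against −0.72 and −0.41 in WT. Macrophage markers had 0.14 and −0.02 against −0.31 and −0.22, and neutrophil markers −0.85 and 0.18 against 0.62 and 0.55. Genotype and these shifts cannot be told apart in this fit, and their part was not tested.

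Between the replicate 2 libraries, with 1 library per genotype and so no test, the difference had the other sign. It was 0.62 for Hmox1, 0.27 for Slc48a1, 0.24 for Slc11a1 and −0.43 for Slc11a2, all KO minus WT on log2(CPM + 1). In all, 7 of the 10 genes had opposite signs in the replicate 2 pair and in the other 4 libraries, as did 50.9% of tested genes. Whether the effect of genotype differed with the Xist level was not tested.

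The wider pathway was followed in lists drawn up from textbook knowledge with earlier results of these data known. No gene in them passed the threshold. The lists of iron uptake, of iron export and storage, of iron sensing, and of heme import and breakdown include the members. Their counts and medians therefore hold the members' values given above. Of 20 genes of iron uptake and intracellular transport 13 were tested, with 9 positive and 4 negative log2 differences and a median of 0.02. Lcn2, the siderophore-binding lipocalin, had 0.720, 1.32 and 1.20 CPM in KO and 1.601, 1.38 and 1.83 CPM in WT, near the filter. It was the 1 gene of the 13 tested whose groups did not overlap, beside 9.95% of all tested genes (log2 difference −0.33; limma adjusted p = 0.866). Pcbp2, a poly(rC)-binding protein that also acts as an iron chaperone, had a log2 difference of 0.07.

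Among 5 tested genes of iron export, storage and ferritin turnover, Slc40a1, Fth1 and Ftl1 were members. The median of the 5 was 0.08, the value of Ftl1 itself, with 4 positive. Ncoa4, the cargo receptor that takes ferritin to the lysosome, averaged 19.3 ± 0.610 in KO and 17.5 ± 2.04 in WT (CPM, mean ± SD, n = 3; log2 difference 0.14), and Hfe, a partner of the transferrin receptors, had 0.06. The 5 iron sensing genes had a median of −0.09. Epas1, the hypoxia-inducible factor HIF-2 alpha, had the largest difference, at 128.2 ± 9.44 against 111.8 ± 0.453 CPM, with all KO libraries above all WT libraries (log2 difference 0.19, 95% interval 0.04 to 0.35; exact permutation p = 0.1, limma adjusted p = 0.866). It was the 1 gene of these 5 whose groups did not overlap, beside 9.95% of all tested genes. Fbxl5, the iron-sensing ubiquitin ligase subunit that removes IRP2, had −0.12.

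Heme import, export and breakdown had 8 positive and 5 negative values among 13 tested genes and a median of 0.01. Abcg2, a transporter that exports porphyrins, averaged 14.8 ± 0.554 in KO and 18.3 ± 0.843 in WT, in CPM. All 3 KO libraries lay below all 3 WT libraries (log2 difference −0.28, 95% interval −0.46 to −0.10; exact permutation p = 0.1), but it did not pass over all genes (limma adjusted p = 0.866). Abcg2 was the 1 gene of these 13 whose groups did not overlap, beside 9.95% of all tested genes. Blvra, the main biliverdin reductase, had a log2 difference of 0.12.

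Heme synthesis, with 13 tested genes, had a median of 0.07, with Alad, which makes porphobilinogen, at 0.20. Iron-sulfur cluster assembly had a median of 0.01 over 23 tested genes, with the ferredoxin Fdx1 at 0.17 and Cisd2 at −0.13. Targets of NRF2 and BACH1, the activator and the heme-sensing repressor that also control Hmox1, had 8 of 10 negative values and a median of −0.20. Their mean centred level was highest in WT replicate 1 (0.37) and WT replicate 3 (0.08), while WT replicate 2 (−0.13) lay below KO replicates 1 and 3 (−0.0060 and −0.043). The neutrophil and the progenitor markers were also highest in WT replicates 1 and 3, and their part in this was not tested. Gclc, of glutathione synthesis, averaged 58.2 ± 3.32 in KO and 72.3 ± 11.7 in WT (CPM; log2 difference −0.30; limma adjusted p = 0.866), and Me1 had −0.41.

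**Figure D4:**
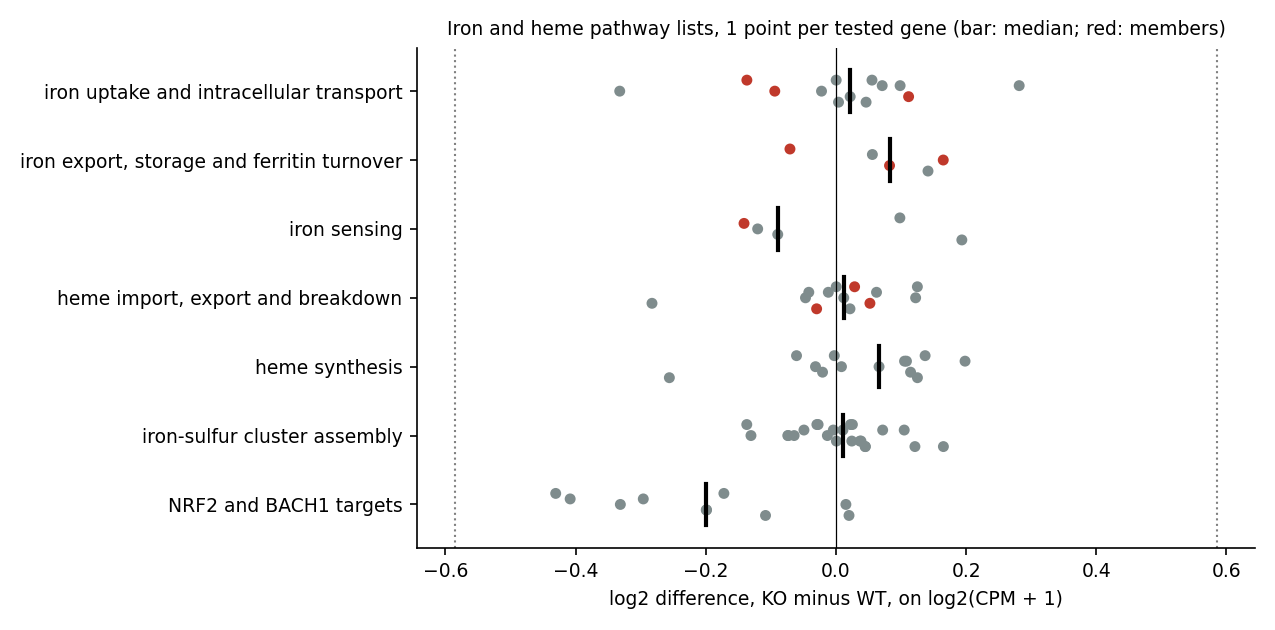
Log2 difference KO minus WT on log2(CPM + 1) (x axis) for each tested gene of 7 pathway lists (rows), with members in red, the median as a bar and dotted lines at 1.5-fold. No gene lies past a dotted line, and the medians run from −0.20 for NRF2 and BACH1 targets to 0.08 for iron export and storage.

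**Figure D5:**
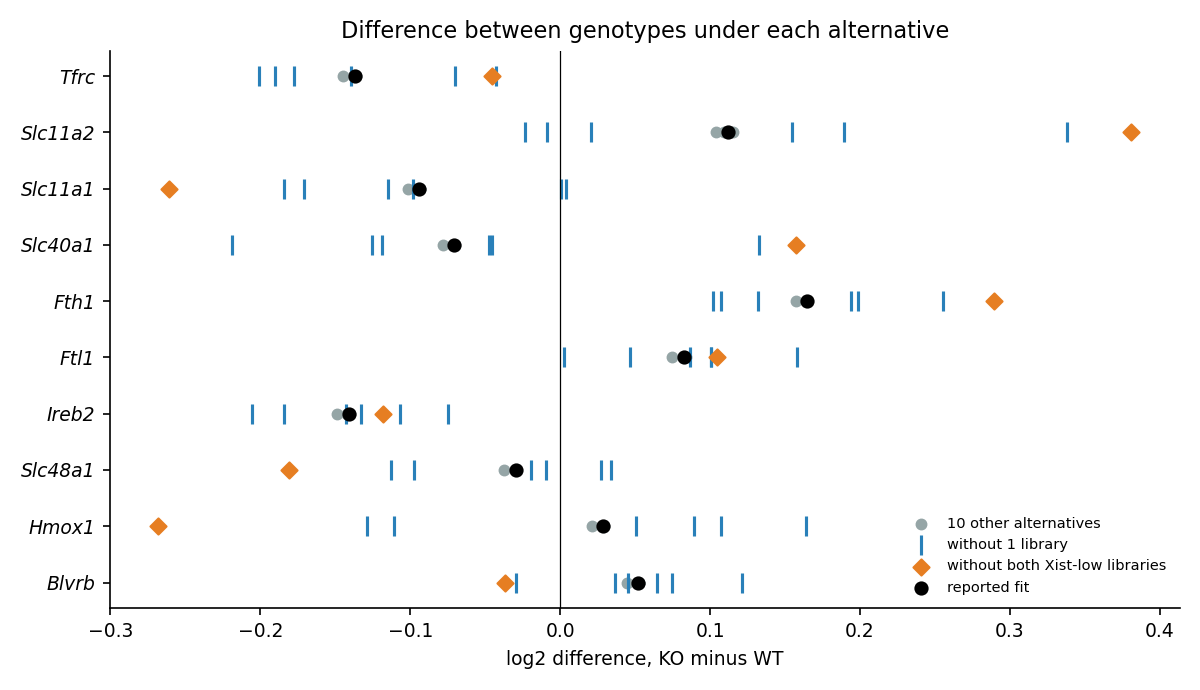
Log2 difference KO minus WT (x axis) of each gene in the reported fit (black), without each library in turn (blue), without both Xist-low libraries (orange) and in 10 other alternatives (grey). The grey points stay by the black ones, while leaving out libraries moves Slc11a2 between −0.02 and 0.38 and Hmox1 between −0.27 and 0.16.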

How the data were processed

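RNA was extracted with a Direct-zol kit and its messenger RNA made into libraries with a KAPA kit, per the labels' protocols. The tools named are FastQC 0.11.15, Trimmomatic 0.36, HISAT2 2.1.0, Cufflinks and HTSeq 0.11.0, per the submitters' processing notes. The sources used here state neither their roles nor the genome build, the annotation or the strand setting. The authors deposited 1 expression value per gene and library, named CPM per the file headers, with their own log2 fold change and unadjusted p-value. The values are log2 CPM whose decimal mark was lost on saving. It was restored by requiring that each value, less the prior, be a whole number of reads, which held for 100% of genes within 0.0001 of a read. CPM are these reads over the authors' scaled library sizes, 0.982 to 1.02 times the reads in the table.

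Genes that reached 1 CPM in 3 or more libraries were fitted as log2(CPM + 1), which understates the change of low genes, with limma 3.58.1 in R 4.3.3 (eBayes with an intensity trend, genotype as the only term), two-sided. As planned for values deposited as log2 CPM, this was the main test, with limma-voom on the recovered reads as an alternative. The 17 alternatives changed the pseudocount, the filter, the scaling, the model or the libraries used. The steps were tested on simulated data. Members, lists and tests were chosen with earlier results of these data known. Named are the 10 members, Ube3a, and of each pathway list the called genes or the 2 others with the smallest p, beside the nearest profiles. A gene that this rule names is not reported here. Gene positions and lengths are GENCODE M21 (GRCm38), matched by Ensembl identifier.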

Additional observations from a re-analysis of the deposited data

How the results depend on the processing

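No member and no gene of the pathway lists passed the threshold in any of 17 alternatives (smallest limma adjusted p of a member 0.254, and 0.419 with 1 library left out). The count over all genes was 2. It was 1 with no filter on low values, with at least 5 CPM in 3 libraries and with limma-voom on the recovered reads, 23 without both Xist-low libraries, and 1 to 8 without 1 library each (8 without WT replicate 2). Whether the numbering pairs the samples is not stated in the labels. Same-numbered KO and WT libraries deviated from their group means with correlations of −0.216, −0.134 and 0.140 over genes. No KO library correlated best with its own number, but both libraries numbered 2 had almost no Xist, so the pairing is not known. With the replicate block the count stayed at 2. Of 170 values of the members under alternatives, 157 kept their direction and 13 took the other sign. Without both Xist-low libraries, Blvrb had −0.037, Hmox1 −0.27 and Slc40a1 0.16 (log2). Without 1 library, the range was −0.030 to 0.12 for Blvrb, −0.13 to 0.16 for Hmox1, −0.18 to 0.0038 for Slc11a1, −0.024 to 0.34 for Slc11a2, −0.22 to 0.13 for Slc40a1 and −0.11 to 0.034 for Slc48a1. The cause was not tested. With 3 libraries per genotype, the widest 95% interval of the 10 genes, that of Slc11a2, allows −0.33 to 0.55 (log2).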

Other observations

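A pair of other iron and heme genes, picked after their values were seen, shared their lowest libraries with Hmox1. Slc39a14, the zinc and iron importer ZIP14, stood at 120.6, 169.0 and 154.8 CPM in KO replicates 1 to 3 and at 173.9, 106.7 and 169.8 CPM in WT. KO replicate 1 and WT replicate 2 were its lowest libraries, as they were for Hmox1. Lrp1, the receptor for heme bound to hemopexin among many other ligands, stood at 4122, 5601 and 4552 CPM in KO and at 5126, 4244 and 5268 CPM in WT, with the same pair lowest. Neither passed between genotypes (log2 differences 0.00036 and −0.04; limma adjusted p = 0.999 and 0.957).

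The ratio of Tfrc to Fth1, targets of the iron regulatory proteins with elements at opposite ends of the transcript, was also computed after the values were seen. Tfrc stood at 2.90%, 2.75% and 3.36% of the Fth1 level in CPM in KO and at 4.24%, 3.24% and 3.66% in WT. KO replicate 3 lay above WT replicate 2, so the genotypes overlapped. Cd163, the hemoglobin scavenger receptor, was near the filter, with 0.760, 2.602 and 1.14 CPM in KO replicates 1 to 3 and 1.34, 1.203 and 1.03 CPM in WT. Spic, the heme-induced transcription factor of red pulp macrophages, was under it, with 9 to 16 reads per library.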
